A study of Homo sapiens with 2 samples.

Results

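Hyaluronan is a long unbranched sugar polymer of the extracellular matrix. The data described here are the transcript levels of 9 human genes for its synthesis, binding and turnover: the synthase genes HAS2 and HAS3, the precursor enzyme gene UGDH, the receptor gene CD44, the matrix organiser genes TNFAIP6 and PTX3, and the hyaluronidase genes HYAL1, HYAL2 and HYAL3. They are 9 of 63677 gene IDs that were counted. They were chosen by symbol and proposed as a group when the ratios of these same libraries were already known, so the ratios below are a description and carry no test. RNA was sequenced from the established breast cancer line MDA-MB-231, which is of human origin, triple-negative and mesenchymal in character. The library labelled CCE was made after exposure to Carpesium cernuum extract (a plant extract) at 1 µg/mL for 24 h, and 1 library was labelled control. The same treatment text stands on both samples, so the handling of the control cells is not known here. With 1 library per group, no replicate check and no p-value could be had.

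Hyaluronan synthases sit in the plasma membrane and join UDP-glucuronic acid and UDP-N-acetylglucosamine while they push the growing chain out of the cell. UGDH makes the UDP-glucuronic acid. CD44 binds the polymer at the cell surface, TNFAIP6 and PTX3 help to crosslink it into a stable matrix, as is best known from the mouse ovary, and hyaluronidases cut it. In breast cancer cells hyaluronan and CD44 are known for their part in adhesion and migration.

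The CCE library held 34884501 counts on genes and the control library 5633569. After scaling, 1 count was worth 0.0283 CPM (CPM being the count scaled to library size) in the CCE library and 0.180 CPM in the control library. Of the 7 hyaluronan genes measured, 6 had fewer counts in the control library and so the larger counting error there, while HAS2 had fewer in the CCE library. Intervals are exact 95% counting intervals. They leave out the spread between cultures, and PCR copies are not independent molecules. CD44, a marker of the line, is also among the genes described here. All 6 markers of the line were detected, between 97.4 and 1801 CPM in the CCE library and between 76.8 and 3739 CPM in the control library. Their log2 ratios lay between -1.05 for VIM and 0.34 for ZEB1, with AXL at -0.95. Of 5 genes that are absent or low in the line, ESR1 and KRT5 had 0 counts in both, and EPCAM was the highest at 7.50 CPM in the CCE library and 10.1 CPM in the control library. Summed markers of leukocytes, endothelium and fibroblasts reached at most 1.26 CPM in either library, with PECAM1 not matched. Genes whose mean over both libraries reached 1 CPM were taken as measured, and there were 14424 of them. The part of the marker differences in the results below was not tested.

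Of the 9 genes, 7 were measured, and each of these 7 also exceeded 1 CPM in both libraries. HAS2 and PTX3 were at least 2-fold lower in the CCE library with an interval that excluded a ratio of 1, as were 4.92% of all measured genes. None of the 7 was at least 2-fold higher, against 4.36% of all measured genes. HAS3 and UGDH were at least 1.5-fold higher, as were 12.1% of all measured genes. CD44, the most abundant of the 9, was 1.25 times lower. For HYAL2 and HYAL3 the intervals included a ratio of 1. HYAL1 was near the limit of detection and TNFAIP6 had no count in either library. The median log2 ratio of the 7 measured genes was -0.14, and that of all measured genes was 0.05. In RNA from whole cultures, fewer cells that express a gene and less of its RNA per cell cannot be told apart.

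**Figure D1:**
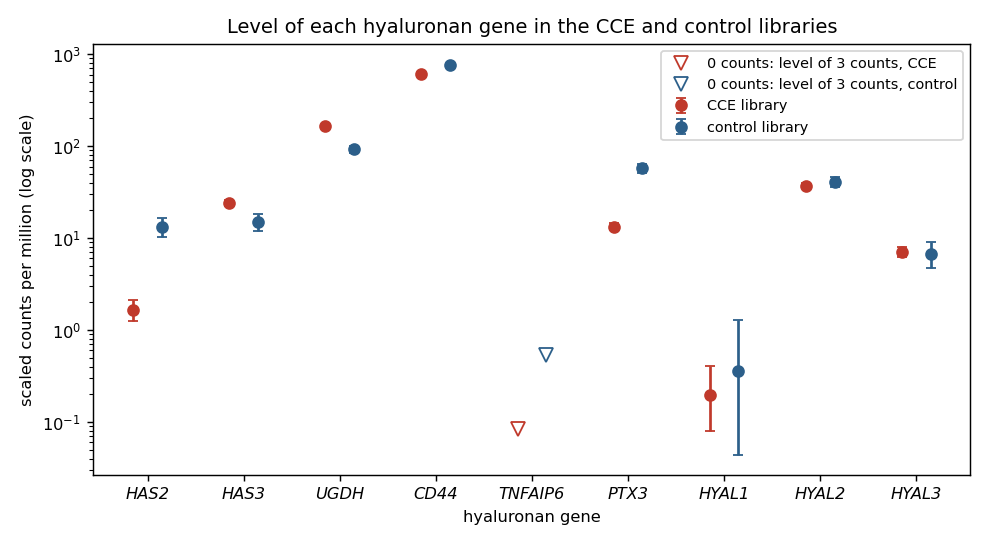
Level in CPM (log scale) of each of the 9 hyaluronan genes in the CCE library (red, left of each pair) and the control library (blue, right), with exact 95% counting intervals. HAS2 and PTX3 lie lower in the CCE library, at 1.64 and 13.4 CPM, and open triangles mark the level of 3 counts for TNFAIP6, which had 0 counts.

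**Figure D2:**
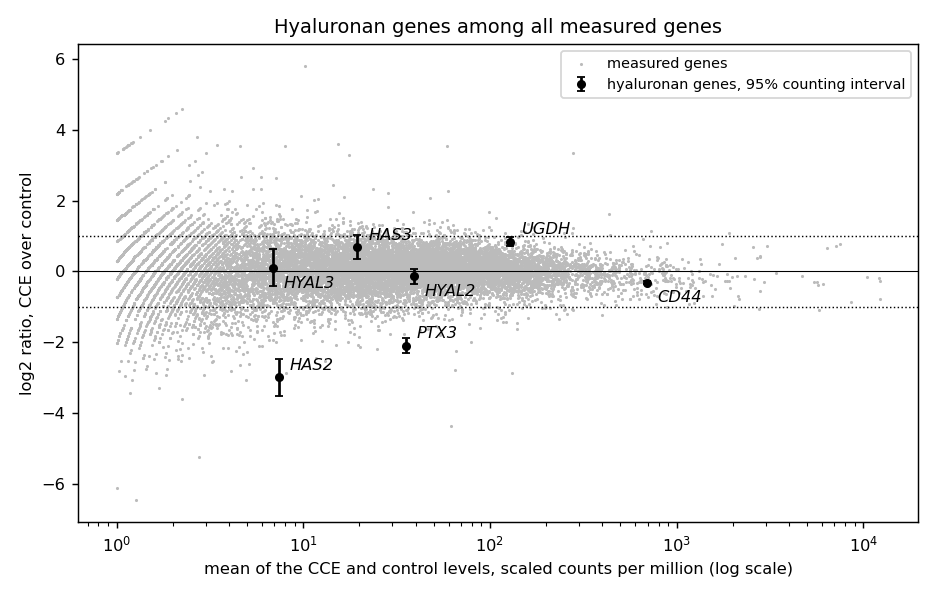
Log2 ratio, CCE over control, against the mean level of both libraries (log scale) for all measured genes (grey) and the 7 measured hyaluronan genes (black, with 95% counting intervals). Dotted lines mark a 2-fold difference, and of the 7 genes HAS2 at -3.00 and PTX3 at -2.10 lie below the lower one.

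The start regions of these genes differ in base composition. Windows of the RefSeq promoter table (build GRCh38.p14) ran from 250 bases before to 50 after each start. They were read for 8 of the 9 genes, HYAL3 with 2 windows. None was read for HAS2, so its start region is not described here. G+C content was 37% for TNFAIP6 and 52.3% for PTX3. The windows of CD44, UGDH, HAS3 and the hyaluronidase genes lay between 63.3% and 68.3%, against a median of 58.7% over the 35116 windows of the table. The 250 bases before the start are shown for PTX3, which was lower in the CCE library, for both genes that were higher, UGDH and HAS3, and for the receptor gene CD44. They are 5′ to 3′ on the gene's strand, and capitals mark a match to a searched motif. They lie at chr3:157436600-157436849 (plus strand) for PTX3, at chr4:39527440-39527689 (minus strand) for UGDH, at chr16:69107290-69107539 (plus strand) for HAS3 and at chr11:35138921-35139170 (plus strand) for CD44.
PTX3: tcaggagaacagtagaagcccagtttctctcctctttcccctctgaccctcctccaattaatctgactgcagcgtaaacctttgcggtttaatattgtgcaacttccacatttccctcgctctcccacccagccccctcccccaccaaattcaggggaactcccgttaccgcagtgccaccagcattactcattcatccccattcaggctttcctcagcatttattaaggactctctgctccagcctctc
UGDH: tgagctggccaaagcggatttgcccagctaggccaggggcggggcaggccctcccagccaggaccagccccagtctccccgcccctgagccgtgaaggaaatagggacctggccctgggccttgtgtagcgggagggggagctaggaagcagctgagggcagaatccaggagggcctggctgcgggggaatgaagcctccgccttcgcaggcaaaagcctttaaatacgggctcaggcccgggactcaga
HAS3: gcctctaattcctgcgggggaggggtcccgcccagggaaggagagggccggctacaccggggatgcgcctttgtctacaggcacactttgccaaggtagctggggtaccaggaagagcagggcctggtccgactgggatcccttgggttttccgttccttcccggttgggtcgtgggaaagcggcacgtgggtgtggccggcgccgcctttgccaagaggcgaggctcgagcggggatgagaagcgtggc
CD44: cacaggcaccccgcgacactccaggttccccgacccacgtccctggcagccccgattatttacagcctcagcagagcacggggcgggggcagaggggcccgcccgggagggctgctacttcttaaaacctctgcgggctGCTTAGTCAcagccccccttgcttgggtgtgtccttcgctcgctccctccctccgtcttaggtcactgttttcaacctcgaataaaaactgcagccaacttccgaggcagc

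Motifs were searched by their letters on both strands of the whole windows. The letters GGGNNNTTC stood for an NF-kB site, TGANTCA for an AP-1 site, TGACNNNGC for the core of the antioxidant response element and TATAAA for a TATA box. The AP-1 and antioxidant response letters can overlap each other. The CD44 window held the antioxidant response letters once, on the opposite strand, as GCTTAGTCA beginning 111 bases before the start. These letters stood in 13.3% of all windows. The TNFAIP6 window held the AP-1 letters as TGAGTCA beginning 129 bases before the start, and 7.71% of all windows held them. The windows of PTX3, UGDH, HAS3, HYAL1, HYAL2 and HYAL3 held none of the 4 motifs in these letters, which stood in 15.5% of all windows for NF-kB and 11.5% for the TATA box. Other spellings of these motifs were not searched and may stand in the windows, so a window without a match is not shown to lack a site. A match is a description of the letters and not a site.

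The synthase genes moved in opposite directions. HAS2, whose enzyme makes long chains, was listed with 58 counts in the CCE library and 73 counts in the control library. By the TMM-scaled library sizes the CCE library was 6.36 times deeper. At the control library's scaled size the 58 counts would be 9.12. The level was 1.64 CPM in the CCE library (1.25 to 2.12) and 13.1 CPM in the control library (10.3 to 16.5), and these intervals did not overlap. The log2 ratio was -3.00 (-3.52 to -2.48), or 8.0 times lower (5.59 to 11.5). By this ratio HAS2 ranked 10 from the lowest among the 14424 measured genes, and 2 from the lowest among the 11304 whose mean reached 5 CPM. The gene lies on chromosome 8 from 122624356 to 122653680 (GRCh37), and 251 bases of its exons are shared with the antisense gene HAS2-AS1, which had 9 counts in the CCE library and 0 in the control library. For HAS2-AS1 the interval included a ratio of 1, and the bases it shares with HAS2 are a small part of the HAS2 exons. These are 5.92% of the HAS2 exon bases. The strand setting of the counting was not stated, so on the shared bases reads of a gene and its antisense partner cannot be told apart.

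HAS3, the synthase gene whose product is known for shorter chains, had 849 counts in the CCE library and 83 in the control library. Its level was 24.0 CPM in the CCE library (22.4 to 25.7) and 14.9 CPM in the control library (11.9 to 18.5). It was 1.61-fold higher (1.28 to 2.04), a log2 ratio of 0.69. HAS3 lies on chromosome 16 from 69139556 to 69152622 (GRCh37), and 7.02% of its exon bases are shared with CHTF8 on the opposite strand, whose log2 ratio was 0.53. HAS1, the remaining synthase gene, had 0 counts in the CCE library, which allows up to 0.0849 CPM by a limit of 3 counts, and 1 count in the control library.

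The balance between the synthase genes within each library does not depend on how the libraries are scaled. HAS2 took 6.39% of the 907 synthase counts of the CCE library (exact Clopper-Pearson interval 4.89 to 8.19) and 46.5% of the 157 synthase counts of the control library (38.5 to 54.6). HAS3 took 93.6% in the CCE library (91.8 to 95.1) and 52.9% in the control library (44.8 to 60.9). Counts per length of the annotated canonical transcript gave nearly the same shares for HAS2, 6.33% in the CCE library and 45.9% in the control library. There were 0.0683 HAS2 counts for each HAS3 count in the CCE library and 0.880 in the control library. The log2 ratio of these ratios was -3.69 (-4.31 to -3.06). The summed synthase level was 25.7 CPM in the CCE library and 28.2 CPM in the control library, so the sum differed far less than its parts.

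**Figure D3:**
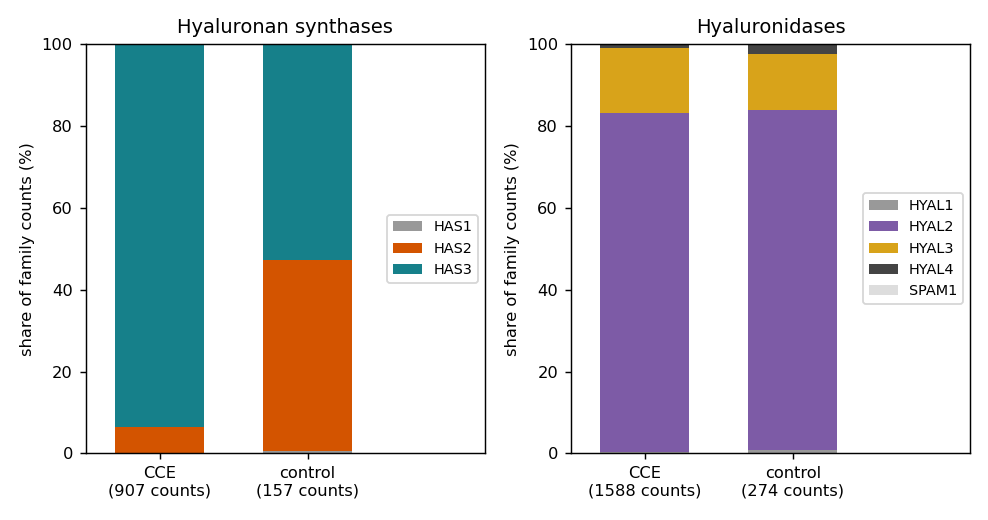
Share of counts (%) taken by each gene of the synthase family (left) and the hyaluronidase family (right) in the CCE library (left bar) and the control library (right bar). HAS2 takes 6.39% of synthase counts in the CCE library and 46.5% in the control library, while HYAL2 takes 82.7% of hyaluronidase counts in the CCE library and 83.2% in the control library.

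UGDH, which oxidises UDP-glucose to UDP-glucuronic acid, had 5822 counts in the CCE library and 511 in the control library. Its level was 165 CPM in the CCE library (161 to 169) and 91.9 CPM in the control library (84.1 to 100.2). The ratio was 1.79-fold higher (1.64 to 1.97), a log2 ratio of 0.84 that ranked 1075 from the highest among the measured genes. By the authors' FPKM the direction was the other way, with 16.0 FPKM in the CCE library and 23.7 FPKM in the control library, so the direction for UGDH rests on the counts. UGDH lies on chromosome 4 from 39500375 to 39529931 (GRCh37), and its antisense neighbour UGDH-AS1 had 53 counts in the CCE library and 9 in the control library.

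CD44 had 21760 counts in the CCE library and 4264 in the control library. The level was 616 CPM in the CCE library (608 to 624) and 767 CPM in the control library (744 to 790), a log2 ratio of -0.32 (-0.36 to -0.27). Of the measured genes, 24.5% had a lower ratio. CD44 lies on chromosome 11 from 35160429 to 35253949 (GRCh37). CD44-AS1, annotated on the opposite strand within it, had 1601 counts in the CCE library and 300 in the control library, a log2 ratio of -0.25 (-0.43 to -0.07).

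CD44 is known for its many splice forms, and the authors' FPKM table lists it in 42 rows that carry no transcript name. The row listed first had 5.30 FPKM in the CCE library and 83.0 FPKM in the control library, which was 9.11% of the gene's summed FPKM in the CCE library and 65.7% in the control library. The other rows summed to 52.8 FPKM in the CCE library and 43.2 FPKM in the control library. Of the 42 rows, 15 were higher in the CCE library, 10 were higher in the control library and 17 were listed at 0 in both. The summed value, 58.1 FPKM in the CCE library and 126 FPKM in the control library, differed by more than the counts did, and without the first row the direction was the other way. The 2 libraries give no replicate of this split, and the depth behind FPKM values is unknown.

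Of the matrix organisers, PTX3 was lower. This gene of the long pentraxin, a soluble pattern recognition protein, had 472 counts in the CCE library and 319 in the control library. Its level was 13.4 CPM in the CCE library (12.2 to 14.6) and 57.4 CPM in the control library (51.2 to 64.0), and these intervals were far apart. The log2 ratio was -2.10 (-2.31 to -1.89), or 4.30 times lower (3.72 to 4.96), which ranked 67 from the lowest among the measured genes. The authors' FPKM had the same direction, with 5.46 FPKM in the CCE library and 23.4 FPKM in the control library. PTX3 lies on chromosome 3 from 157154639 to 157161422 (GRCh37) within VEPH1, which is on the opposite strand and had 26 counts in the CCE library and 4 in the control library.

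TNFAIP6, whose protein moves the heavy chains of inter-alpha-inhibitor onto hyaluronan, had 0 counts in both libraries. A count of 0 allows a level of up to 0.0849 CPM in the CCE library and 0.540 CPM in the control library (a limit of 3 counts each), and the exact two-sided intervals reach 0.104 CPM in the CCE library and 0.663 CPM in the control library. No difference was detectable at this depth. The donors of those heavy chains were also scarce: ITIH1, ITIH3 and ITIH5 had 0 counts in both libraries, ITIH4 had 1 count in the CCE library and 0 in the control library, and ITIH2 had 7 counts in the CCE library and 1 in the control library.

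The hyaluronidase genes HYAL1, HYAL2 and HYAL3 lie side by side on chromosome 3, from 50330262 to 50360213 (GRCh37). HYAL2, which encodes a GPI-anchored enzyme at the cell surface, had 1314 counts in the CCE library and 228 in the control library. Its level was 37.2 CPM in the CCE library (35.2 to 39.2) and 41.0 CPM in the control library (35.9 to 46.7), intervals that overlapped, with a log2 ratio of -0.14 (-0.35 to 0.07). HYAL3 had 252 counts in the CCE library and 37 in the control library, a log2 ratio of 0.10 (-0.40 to 0.64). By counts both intervals exclude a 2-fold difference, but by the authors' FPKM HYAL2 was more than 2-fold lower, at 6.18 FPKM in the CCE library and 19.2 FPKM in the control library. HYAL1, the gene of a lysosomal hyaluronidase, had 7 counts in the CCE library and 2 in the control library, too few for a ratio to be read.

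HYAL2 made up 82.7% of the hyaluronidase counts in the CCE library (80.8 to 84.6) and 83.2% in the control library (78.2 to 87.4), and these intervals overlapped. HYAL4 took 0.945% in the CCE library (15 counts, 0.530 to 1.55) and 2.55% in the control library (7 counts, 1.03 to 5.19). Its log2 ratio was -1.57 with an interval that excluded 0 (-2.95 to -0.03), but its mean level was below 1 CPM. Neighbours share exon bases with these genes on the same strand. HYAL2 shares 11.5% of its exon bases with TUSC2, which had a log2 ratio of 0.40, and HYAL3 shares 11.8% with NAA80, which had 0.11. How shared bases were counted was not stated. Records listed as ambiguous, under no gene, were 1.36% of those of the CCE library and 1.59% of those of the control library.

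Per kilobase of canonical transcript, PTX3 stood below UGDH and HYAL2 in the CCE library and beside UGDH, above HYAL2, in the control library, while the other genes kept their order. In the CCE library CD44 had 113 CPM per kb, UGDH 54.2, HYAL2 19.8, PTX3 7.09, HAS3 5.73, HYAL3 3.80, HAS2 0.387 and HYAL1 0.0975, and no neighbours in this order had overlapping intervals. In the control library CD44 had 141 CPM per kb, PTX3 30.5, UGDH 30.3, HYAL2 21.8, HAS3 3.56, HYAL3 3.54, HAS2 3.10 and HYAL1 0.177. There PTX3 and UGDH had overlapping intervals, as did HAS3, HYAL3 and HAS2 with one another. HAS2 and HAS3 thus had like levels in the control library and stood far apart in the CCE library.

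Among the other genes of the pathway, 3 of 57 measured list genes passed 1.5-fold upward and 7 passed it downward, and their median log2 ratio was 0.00. Over all measured genes the shares past 1.5-fold were 12.1% upward and 11.3% downward. The list of hyaluronan synthesis and precursors held 15 measured genes besides the 9. None of these passed 1.5-fold upward, 1 passed it downward, and their median log2 ratio was 0.02. The lower gene was GFPT2, of the hexosamine pathway that feeds UDP-N-acetylglucosamine synthesis, at 85.4 CPM in the CCE library and 133 CPM in the control library (log2 ratio -0.64, -0.75 to -0.52). The 2 most abundant genes of the list, GPI and HK1 of early glycolysis, had log2 ratios of 0.00 and 0.34. In the list of hyaluronan breakdown, none of the 6 other measured genes passed 1.5-fold either way, and their median log2 ratio was -0.06. The hyaluronidase-like genes CEMIP and CEMIP2 had log2 ratios of -0.42 and 0.24.

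Receptors and cell-surface partners went both ways, with 1 of 11 other measured genes past 1.5-fold upward and 2 downward. Their median was 0.04. SRGN, the gene of the proteoglycan serglycin, which can bind CD44, had 297 CPM in the CCE library and 185 CPM in the control library (log2 ratio 0.69, 0.59 to 0.78). ICAM1, an adhesion receptor gene, had 85.6 CPM in the CCE library and 167 CPM in the control library (-0.96, -1.07 to -0.86). HMMR, the gene of the hyaluronan receptor RHAMM, which also acts at the mitotic spindle, had 182 counts in the CCE library and 49 in the control library (-0.78, -1.24 to -0.29). HMMR was listed at 1.64 FPKM in the CCE library and at 0 in the control library, the other direction. MSN, which encodes moesin and links CD44 to actin, was the most abundant of this list at 992 CPM in the CCE library and 916 CPM in the control library. LYVE1, the receptor gene of lymphatic endothelium, had 0 counts in both libraries.

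Hyaluronan-binding matrix genes were mostly near or below detection: of 20 listed besides the 9, 5 were measured and 10 had 0 counts in both libraries. Of the 5, none passed 1.5-fold upward and 2 passed it downward. Their median was -0.29. EFEMP1, of the fibulin family, had 9.79 CPM in the CCE library and 17.1 CPM in the control library (log2 ratio -0.80, -1.13 to -0.46). FBLN1, chosen after its values were seen, had 47 counts in the CCE library and 21 in the control library (-1.51, -2.28 to -0.69). It was listed at 0.0704 FPKM in the CCE library and at 0 in the control library, the other direction. C1QBP, the most abundant of the list, had 294 CPM in the CCE library and 358 CPM in the control library.

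HAS2, PTX3 and TNFAIP6 belong to the matrix genes that are induced together when the cumulus around the mouse oocyte expands. Of the 8 other measured genes of that list, 1 passed 1.5-fold upward and 1 downward. Their median log2 ratio was 0.11. EREG, which encodes the EGF receptor ligand epiregulin, was 3.52-fold higher, with 1567 counts in the CCE library and 70 in the control library (log2 ratio 1.82, 1.47 to 2.18). PTGS2, the prostaglandin synthase gene, had 81.9 CPM in the CCE library and 91.4 CPM in the control library (-0.16, -0.29 to -0.02). CTSL, of a lysosomal protease, was the most abundant of the list and had a log2 ratio of 0.50, with 84.7 FPKM in the CCE library and 109 FPKM in the control library, the other direction. PTGER2, chosen after its values were seen, had 25 counts in the CCE library and 11 in the control library (-1.48).

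For CD44 shedding and splicing, 1 of 12 measured genes passed 1.5-fold upward and 1 downward. Their median was -0.05. ADAM17, a membrane protease that can shed cell-surface proteins, had 129 CPM in the CCE library and 65.6 CPM in the control library (log2 ratio 0.98, 0.82 to 1.13). TRA2A, a splicing regulator, had 36.7 CPM in the CCE library and 58.3 CPM in the control library (-0.67, -0.84 to -0.49). HNRNPM and NCSTN, the most abundant of this list, had -0.21 and 0.02, although HNRNPM was listed at 1.13 FPKM in the CCE library and at 74.3 FPKM in the control library. ESRP1, an epithelial splicing regulator, had 14 counts in the CCE library and 0 in the control library. Its mean level was 0.198 CPM, too low to be taken as measured, and its interval included a ratio of 1.

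**Figure D4:**
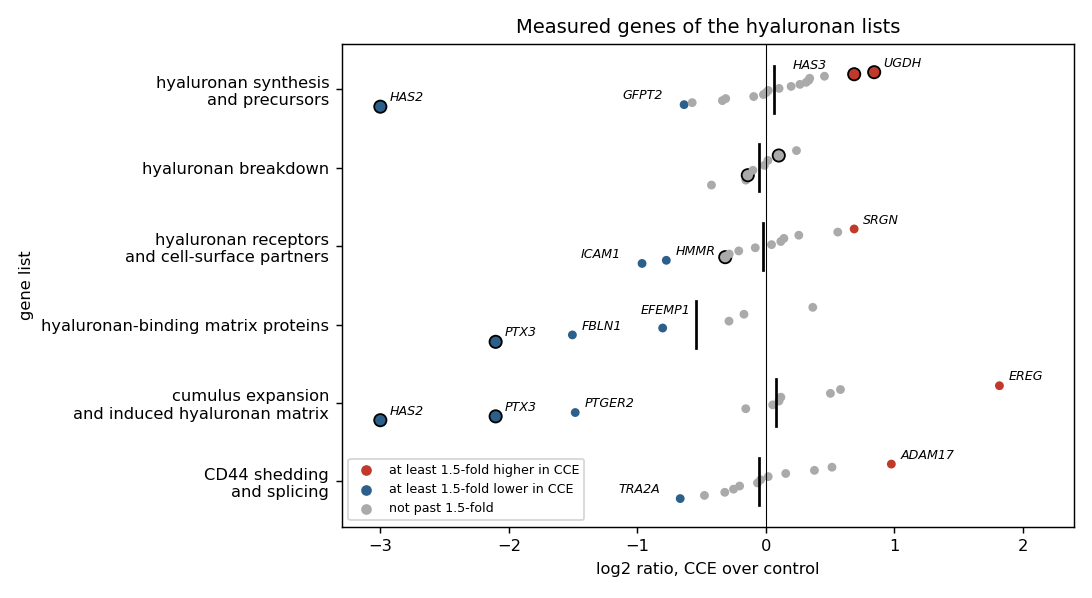
Log2 ratio, CCE over control, of every measured gene of the 6 hyaluronan lists, 1 row per list. Outlined points are among the 9 hyaluronan genes, colours mark genes at least 1.5-fold higher (red) or lower (blue) with an interval that excludes 1, and black bars are list medians, which lie between -0.55 and 0.08 with the 9 genes included.

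**Figure D5:**
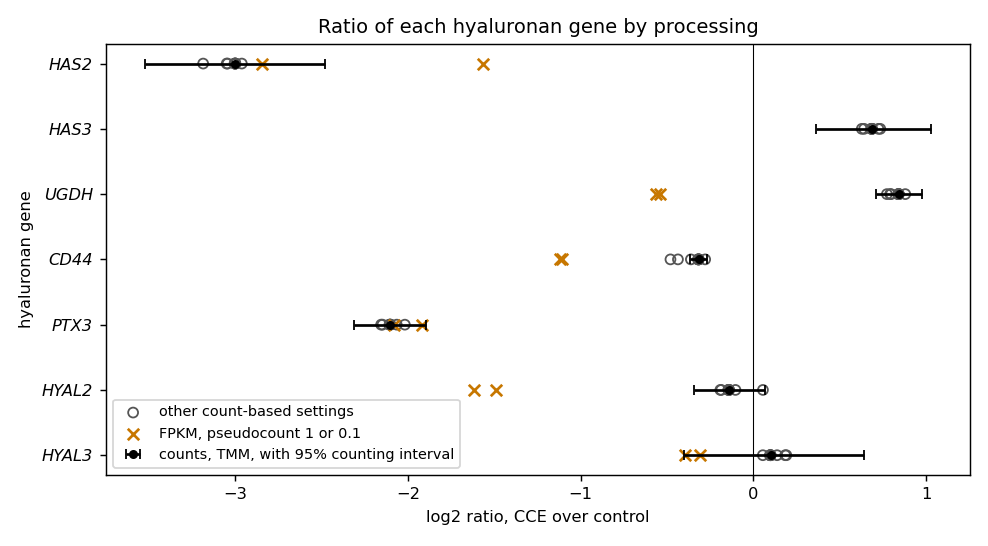
Log2 ratio, CCE over control, of the 7 measured hyaluronan genes from counts (black, with 95% counting intervals), from counts under other settings (open circles) and from the authors' FPKM (crosses). HAS2 and PTX3 stay below 0 under every setting shown, UGDH lies at 0.84 by counts and at -0.54 by FPKM with a pseudocount of 1, and HAS3 has no cross because it was listed at 0 FPKM in both libraries.

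The authors' FPKM gave no value for HAS3, which was listed at 0 in all 5 of its rows in both libraries despite 849 counts in the CCE library and 83 in the control library. HAS2 had 0.318 FPKM in the CCE library and 2.90 FPKM in the control library, the same direction as the counts. As for CD44, most of the FPKM difference of HYAL2 stood in 1 unnamed row, with 3.81 FPKM in the CCE library and 17.0 FPKM in the control library, while the other 9 rows summed to 2.37 FPKM in the CCE library and 2.26 FPKM in the control library. HYAL3 had 2.77 FPKM in the CCE library and 3.68 FPKM in the control library.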

How the data were processed

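RNA sequencing covered 2 libraries, 1 CCE and 1 control. Raw counts per Ensembl gene and FPKM values were deposited by the authors. Per the submitters' processing notes, HISAT2 was used, with hg19 and GRCh37 given as builds. How reads were assigned to genes, with what strand setting, and how FPKM was estimated was not stated. The 5 rows that name no gene held 66.8% of the records of the CCE library and 62.9% of those of the control library and were left out. The annotation used for symbols, positions and lengths was GENCODE release 44 in its GRCh37 version, where 55665 of 63677 IDs were found. Counts were scaled with TMM factors (edgeR 4.0.16, R 4.3.3), 1.01 for CCE and 0.987 for control. Log2 ratios, CCE over control, used no pseudocount, and their exact 95% Clopper-Pearson intervals (scipy 1.17.1) treat both libraries' counts of a gene as binomial. FPKM rows were summed per gene and compared as log2(FPKM + 1). No model was fitted, since each group has 1 library. The procedure was tested on simulated Poisson counts with known library sizes. These hold no spread between cultures and no PCR copies, so that test does not cover either.

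The 9 genes, the 6 lists and the tests were chosen with earlier results of these data known. Named genes were the 9, list genes whose mean reached 5 CPM and that were past 1.5-fold with an interval excluding 1, the 2 most abundant of each list, HAS1, HMMR and genes that share exon bases with the 9. A gene that this rule names is not reported here. Other genes named are examples chosen after their values were seen. Alternatives were scaling by DESeq2 1.42.0 size factors, by the upper quartile, by the total count or without mitochondrial genes, other filters and thresholds, FPKM, and centring by GC content or exon length.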

Additional observations from a re-analysis of the deposited data

How the results depend on the processing

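HAS2 and PTX3 were at least 2-fold lower under every count-based setting, at log2 ratios of -3.19 to -2.96 and -2.16 to -2.02, and the log2 ratio of HAS3 stayed between 0.63 and 0.73. By FPKM with pseudocounts of 1 and 0.1, 4 of the hyaluronan genes were at least 2-fold lower in place of 2 (with CD44 at -1.11 and -1.12 and HYAL2 at -1.49 and -1.62). Of all measured genes with an FPKM value, 15.58% and 20.45% were lower in this way, in place of 4.92%. These FPKM calls used the fold alone, with no interval. The median of the measured hyaluronan genes was -1.30 and -1.37 (6 genes, without HAS3) in place of -0.14 (7 genes), and UGDH was at -0.54 and -0.57 in place of 0.84. The cause was not tested. HAS2 was at -1.57 by FPKM with a pseudocount of 1, which shrinks low values, and at -2.84 with 0.1. Centred by GC content, CD44 was at -0.48, and HYAL2 and the median were at 0.06. At a 1.5-fold threshold 2 hyaluronan genes were higher in place of 0, against 12.1% of all measured genes in place of 4.36%. Over all genes, 629 were at least 2-fold higher and 710 lower. These counts were 288 and 331 where the mean had to reach 5 CPM, 1745 and 1628 at 1.5-fold, 2081 and 2001 by FPKM with a pseudocount of 1, and 3136 and 2626 with 0.1. With no count filter 1087 genes were lower. No paired analysis was possible because each group has 1 library. HYAL1, TNFAIP6 and HAS1 had few or no counts in both libraries, and the lower depth of the control library limits them further.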
